A study of Mus musculus with 14 samples.

Results

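Calcium release in skeletal muscle takes place at the triad, and the mRNA of 10 genes of that structure was followed here in mouse muscle treated with follistatin. The genes were taken by symbol, and all 10 were present among the 24359 genes of the files. Their list was drawn up with earlier results of these data known, so counts over it are a description. They code for the voltage sensor (Cacna1s), the release channel (Ryr1), the calcium stores and their anchor (Casq1, Casq2, Trdn), an inhibitor of the calcium pump (Sln), proteins of the junction (Jph1, Jph2, Sypl2) and a protein that shapes the transverse tubule (Bin1). Poly(A) RNA came from the tibialis anterior, a shin muscle made up mostly of fast fibres, of C57Bl/6 mice. Follistatin, a secreted protein that binds myostatin and activins, was the treatment, and the other muscles were controls. There were 4 follistatin and 3 control libraries of day 3. Days 7 and 14, which the submitters pool as chronic treatment and which are called the chronic set here, gave 4 follistatin libraries (2 of each day) and 3 control libraries (2 of day 7 and 1 of day 14). The submitters label the control arm MCS and the follistatin arm FST. Age, sex, the way follistatin was given and, beyond that label, what control muscles received are not given in the sources used here. Nor is it stated that replicates were separate animals, so p-values cover only the spread among the libraries sequenced.

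In a triad, a transverse tubule, which is an inward fold of the surface membrane, lies between cisternae of the sarcoplasmic reticulum, the calcium store of the fibre. Depolarization of the tubule moves the voltage sensor, which opens the release channel, and calcium bound to calsequestrin inside the cisternae flows out and starts contraction. Pumps then return the calcium to the store, and junctophilins hold the membranes together.

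The promoters of 4 of these genes are printed because Sypl2 and Casq2 rose, Ryr1 fell and Casq1 is the second calsequestrin gene, as described further on. RefSeq promoters (build GRCm38.p6) were found for 6 of the 10 genes, namely Sypl2, Casq1, Casq2, Ryr1, Jph2 and Cacna1s. Capitals mark the E-box CAGCTG, a site type bound by myogenic factors such as MyoD, and the MEF2 box, bound by MEF2 factors. The window was the 250 bases upstream of the RefSeq start, searched on both strands. Of each window, only the bases outside the gene as GENCODE annotates it are printed, which leaves out 49 bases of Sypl2 and 28 bases of Ryr1.
Sypl2, chr3:108226649-108226849, minus strand: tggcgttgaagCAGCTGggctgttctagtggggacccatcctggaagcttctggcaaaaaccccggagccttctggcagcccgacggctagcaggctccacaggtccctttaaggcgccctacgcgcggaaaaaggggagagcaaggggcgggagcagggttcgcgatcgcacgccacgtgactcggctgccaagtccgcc
Casq2, chr3:102086165-102086414, plus strand: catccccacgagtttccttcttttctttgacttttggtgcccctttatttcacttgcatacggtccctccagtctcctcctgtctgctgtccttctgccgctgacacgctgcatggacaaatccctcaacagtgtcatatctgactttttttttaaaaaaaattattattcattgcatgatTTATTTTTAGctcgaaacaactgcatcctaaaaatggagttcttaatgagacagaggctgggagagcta
Casq1, chr1:172219896-172220145, minus strand: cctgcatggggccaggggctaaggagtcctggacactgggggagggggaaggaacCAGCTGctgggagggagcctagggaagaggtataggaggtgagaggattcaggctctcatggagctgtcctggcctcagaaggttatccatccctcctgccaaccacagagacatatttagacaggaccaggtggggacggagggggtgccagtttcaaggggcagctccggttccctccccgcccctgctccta
Ryr1, chr7:29125180-29125401, minus strand: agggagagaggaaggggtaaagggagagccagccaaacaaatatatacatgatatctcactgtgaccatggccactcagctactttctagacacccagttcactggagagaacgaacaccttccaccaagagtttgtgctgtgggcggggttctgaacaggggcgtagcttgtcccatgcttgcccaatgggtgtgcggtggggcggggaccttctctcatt
The E-box CAGCTG stood 239 bases upstream of the start in Sypl2 and 195 bases upstream in Casq1, and it was also found in the windows of Jph2 and Cacna1s. Among 32851 RefSeq promoters of the same length, 13.0% held it. The MEF2 box was found only in Casq2, among these 6 genes, 69 bases upstream, and 2.919% of all promoters held one. Neither motif was found in the Ryr1 window, and the CArG box, held by 1.467% of all promoters, was found in none of the 6 genes. Also searched, but not marked by capitals, were the MCAT element CATTCC and the Smad element CAGAC. The MCAT element, held by 12.64% of all promoters, was found only in Cacna1s among these 6 genes. The Smad element, held by 42.19%, was found in Casq2, Jph2 and Cacna1s. Matches describe letters only, and the motifs did not overlap one another in these windows.

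The labels were first checked against the gene of the treatment. Fst, the gene of follistatin, was at 49.8 to 67.8 FPKM in follistatin libraries of day 3, 367 to 407 FPKM at day 7 and 1315 to 1421 FPKM at day 14, against 0.808 to 1.42 FPKM in all controls. FPKM is the number of fragments per kilobase of transcript, scaled to library size, so levels of different genes can be set side by side. Of 6 fibre markers, Acta1, the skeletal alpha-actin, and Myh4, a fast myosin heavy chain, were marked HIDATA by the authors at day 3, meaning too many reads to be estimated. Myh4 was listed at 0 in all 4 follistatin libraries of day 3, against 8989 to 10504 FPKM in controls. The other 4 summed to 36490 to 42150 FPKM in follistatin and 39470 to 43140 FPKM in control libraries of day 3. In the chronic set all 6 fibre markers were marked HIDATA and listed at 0 in some or all libraries, so the muscle identity of those libraries was not checked with them. Library FPKM summed to 486376.5 to 515812 in follistatin and 508717 to 532859 in control libraries of day 3. In the chronic set the sums were 364513 to 433552 in follistatin and 485755.5 to 510584 in control libraries, without overlap. The markers Ckm and Pvalb were listed at 0 in chronic follistatin libraries but not in chronic controls. Whether this had a part in the lower sums was not tested. One chronic control, of day 7 replicate 1, had 16158 genes with a value above 0, where the remaining 6 chronic libraries had 19383 to 20283.

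Summed vascular markers were lower with follistatin, with a slight overlap of the groups for smooth muscle at day 3, and so were summed Schwann cell markers in the chronic set. The summed level of 6 endothelial markers was 88.2 to 103.9 FPKM in follistatin and 111.6 to 117.8 FPKM in control libraries of day 3, and 62.2 to 103.1 against 112.9 to 156 FPKM in the chronic set. The sum of 6 smooth muscle and pericyte markers was 176.5 to 218.4 FPKM in follistatin and 217.6 to 242.9 FPKM in control libraries of day 3, and 36.1 to 93.7 against 117.2 to 162.9 FPKM in the chronic set. Most of this sum at day 3 was Rgs5, with means of 148.3 FPKM in follistatin and 178.3 FPKM in control libraries. At day 3, 4 of the 5 tested had lower fold changes, while Acta2 was higher (32.7 against 27.7 FPKM by the means, not called). Cnn1 averaged under 1 FPKM and was not tested, which left 6 endothelial and 5 smooth muscle and pericyte genes tested in each set. Only Tek, in the chronic set, passed the gene test (lower with follistatin, adjusted p = 0.041). Of all genes, 1.49% at day 3 and 5.5% in the chronic set passed. An unadjusted p under 0.05 by limma was found for 2 endothelial and 3 smooth muscle and pericyte genes at day 3, beside 15.2% of all genes. In the chronic set it was found for 5 and 4, beside 28.3% of all genes. The sum of 6 Schwann cell markers was 30.5 to 54.3 FPKM in follistatin and 33.3 to 44.1 FPKM in control libraries of day 3, and 19.6 to 35.6 against 41.2 to 91.7 FPKM in the chronic set. Of these, 4 were tested in each set and 0 were called by limma, beside 1.49% and 5.5% of all genes. An unadjusted p under 0.05 was found for 0 at day 3 and 3 in the chronic set, beside 15.2% and 28.3% of all genes. Sums of 6 fibroblast and 6 macrophage markers overlapped between the groups in both sets. The sum of 8 developmental muscle markers was 799.9 to 1216 FPKM in follistatin and 273.8 to 471.6 FPKM in control libraries of day 3, and 1956 to 6191 against 93.8 to 604.9 FPKM in the chronic set. Of the 8 tested at day 3 and the 6 tested in the chronic set, only Actc1, the cardiac alpha-actin, passed (adjusted p = 0.00338 and 0.0315). That is 12.5% and 16.7% of those tested, beside 1.49% and 5.5% of all genes. Without Actc1 the sum was 108.2 to 323 FPKM in follistatin and 70.03 to 204.2 FPKM in control libraries of day 3, and 17 to 29.3 against 19.2 to 27.5 FPKM in the chronic set, with overlapping groups in both. Whether any of these markers had a part in the results below was not tested. In whole muscle, fewer cells of a type and less mRNA per cell cannot be told apart.

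Sypl2, Bin1 and Casq2 rose at day 3 and in the chronic set, Sln rose in the chronic set, and Ryr1 fell in the chronic set. The change was tested with limma on log2(FPKM + 1), follistatin minus control, and calls needed an adjusted p under 0.05 (Benjamini-Hochberg, over all genes tested). At day 3, 3 of 10 members were called higher and 0 lower. Of the 11268 genes tested, 0.923% were called higher and 0.568% lower (1.49% in all). In the chronic set, 4 of the 9 members tested were called higher and 1 lower, against 2.24% of 11047 genes called higher and 3.27% lower (5.5% in all). The median log2 fold change of the members was 0.27 at day 3 and 0.19 in the chronic set, where that of all genes was 0.01 and -0.09. In each set 7 members were above 0, out of 10 and 9, beside 52.59% and 39.18% of all genes. At day 3 the groups did not overlap for 5 members, 4 higher and 1 lower, beside 15.1% of genes tested (8.31% higher). For days 7 and 14 they did not overlap for 6 of the members tested, 4 higher and 2 lower, beside 30.4% of genes tested (8.96% higher). Within day 7 alone, with 2 libraries per group, log2 fold changes were 1.03 for Sypl2, 0.73 for Bin1, 1.45 for Casq2, 1.53 for Sln and -0.63 for Ryr1, and none passed (adjusted p 0.116 to 0.252). Day 14 had a single control, so no test was made within it. In the authors' deposited table, made with Cuffdiff, 5 members were significantly higher and 0 lower at day 3 (6.25% of the 9625 genes that table tested were significant), and 4 higher and 1 lower in the chronic set (17.8% of 12664). The added pair at day 3 were Jph1 and Sln, both with q = 0.0137.

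**Figure D1:**
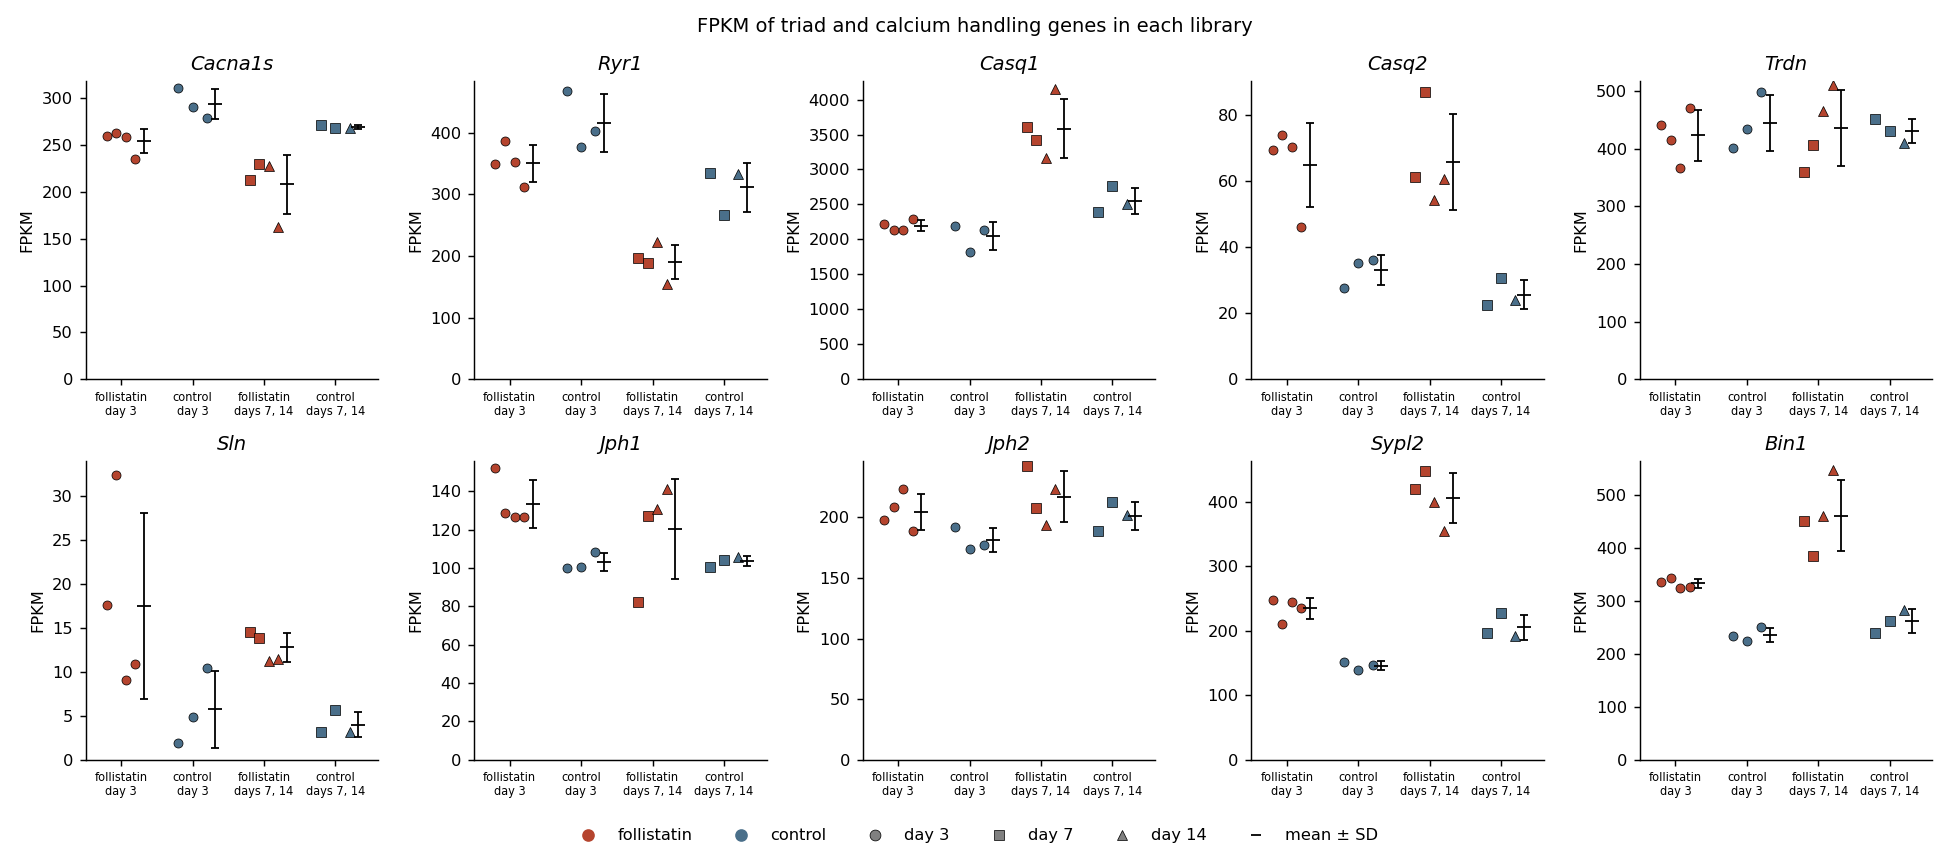
FPKM of each of the 10 genes (vertical axes, from 0) in the follistatin and control libraries of day 3 and of days 7 and 14 (horizontal axis). Points are libraries and bars are mean ± SD. The follistatin points of Sypl2, Bin1 and Casq2 lie above all controls in both sets, those of Cacna1s lie below them in both sets, and those of Ryr1 lie below them in the chronic set.

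The voltage sensor and the release channel were lower with follistatin, but only Ryr1 in the chronic set passed the test. Cacna1s (chromosome 1, 136052750 to 136119822, plus strand) codes for the pore-forming subunit of the L-type calcium channel of the transverse tubule. At day 3 it had 259.6, 262, 258 and 235 FPKM in follistatin libraries, against 310.3, 290.2 and 279 FPKM in controls. The chronic set gave 212 and 229 FPKM in follistatin libraries of day 7 and 227 and 162 FPKM in those of day 14, against 271 and 268 FPKM in controls of day 7 and 267 FPKM in the control of day 14. Every follistatin library lay below every control of its set. The log2 fold change was -0.21 (95% confidence interval -0.36 to -0.06, adjusted p = 0.194) at day 3 and -0.38 (-0.71 to -0.06, adjusted p = 0.126) in the chronic set, neither past the threshold. Complete separation in this direction was seen in 6.8% of genes tested at day 3 and in 21.5% in the chronic set. With all 14 libraries in 1 fit, the chronic difference passed (adjusted p = 0.026).

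Ryr1 (chromosome 7, 29003344 to 29125179, minus strand) codes for the channel through which calcium leaves the sarcoplasmic reticulum. At day 3 it had 349.6, 387, 353 and 312 FPKM in follistatin libraries, against 468, 376 and 402 FPKM in controls, and the groups overlapped. The log2 fold change was -0.24 (95% confidence interval -0.47 to -0.02, adjusted p = 0.28). For days 7 and 14 the values were 196 and 189 FPKM in follistatin libraries of day 7 and 222 and 155 FPKM in those of day 14, against 335 and 266 FPKM in controls of day 7 and 334 FPKM in the control of day 14. All 4 follistatin libraries lay below all 3 controls. The chronic means were 190.7 ± 27.4 FPKM in follistatin (SD, n = 4) and 311.4 ± 39.4 FPKM in control libraries (SD, n = 3), a log2 fold change of -0.71 (SE 0.15, adjusted p = 0.0404). This call was near the threshold. It was lost with median ratio rescaling (-0.60, adjusted p = 0.066), with day as a covariate (adjusted p = 0.0565), and when any single library other than follistatin day 7 replicate 1 was left out (adjusted p 0.0502 to 0.195). In the annotation Ryr1 shares 864 exon bases with an antisense gene, Gm26604, and Cacna1s shares 1309 with another, Gm37759. The strand setting of the libraries is not given in the sources used here, so reads of such partners cannot be told apart.

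Of the 2 calsequestrins, which bind calcium inside the store, Casq2 rose in both sets. Casq2, the calsequestrin of heart and slow fibres, was 1.96-fold higher by the means at day 3 and 2.56-fold higher in the chronic set. Casq1, the main calsequestrin of skeletal muscle, was not called at day 3 and was left out of the chronic test because of its mark in the authors' table. Casq2 (chromosome 3, 102086415 to 102146514, plus strand) had 69.3, 73.9, 70.4 and 46.2 FPKM in follistatin libraries of day 3, against 27.8, 35.4 and 36.2 FPKM in controls. Chronic values were 61.3 and 87.1 FPKM in follistatin libraries of day 7 and 54.2 and 60.8 FPKM in those of day 14, against 22.4 and 30.7 FPKM in controls of day 7 and 24 FPKM in the control of day 14. The groups did not overlap in either set, and follistatin day 3 replicate 4 was the lowest follistatin library. At day 3 the change on the log2 scale was 0.94 (SE 0.17, adjusted p = 0.0373), and for days 7 and 14 it was 1.31 (SE 0.18, adjusted p = 0.0124). The day 3 call was lost when any library but follistatin replicate 4 was left out (adjusted p 0.0878 to 0.146). The chronic call was lost without control day 7 replicate 1 (adjusted p = 0.0878) or without the control of day 14 (adjusted p = 0.0668).

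Markers of slow fibres overlapped between the groups. The 9 genes summed to 145.9 to 261 FPKM in follistatin and 136.9 to 186 FPKM in control libraries of day 3, and 68.8 to 104.4 against 83.3 to 138.4 FPKM in the chronic set, with overlapping groups in both. None of the 8 tested at day 3, or of the 7 tested in the chronic set, was called by limma, where 1.49% and 5.5% of all genes were. An unadjusted p under 0.05 was found for 0 and 1 of them, beside 15.2% of all genes at day 3 and 28.3% in the chronic set. At day 3, 6 of the 8 tested had a log2 fold change above 0, beside 52.59% of all genes. In the chronic set 2 of the 7 did, beside 39.18%. Tnni1, for example, averaged 38.0 FPKM in follistatin and 21.2 FPKM in control libraries of day 3 (adjusted p = 0.441). Myh7, the slow myosin heavy chain, averaged 1.19 FPKM in follistatin and 0.985 FPKM in control libraries of day 3. In the chronic set it averaged 0.34 and 0.676 FPKM and was under the filter, so it was not tested there.

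Casq1 (chromosome 1, 172209894 to 172219868, minus strand) had the highest level of the members in all 14 libraries. At day 3 it had 2224, 2134, 2143 and 2292 FPKM in follistatin libraries, against 2187, 1824 and 2134 FPKM in controls. The groups overlapped, and the log2 fold change was 0.11 (95% confidence interval -0.07 to 0.28, adjusted p = 0.561). The chronic set gave 3603 and 3421 FPKM in follistatin libraries of day 7 and 3170.05 and 4148 FPKM in those of day 14, against 2397 and 2761 FPKM in controls of day 7 and 2507 FPKM in the control of day 14. All 4 follistatin libraries lay above all 3 controls, with means of 3586 ± 414.8 FPKM in follistatin (SD, n = 4) and 2555 ± 186.5 FPKM in control libraries (SD, n = 3), a ratio of 1.40. The authors' deposited table marks this gene HIDATA in the chronic set and lists a follistatin value of 0 there, although each library has a value of its own. Casq1 was therefore left out of the chronic test. When genes marked HIDATA were kept, its log2 fold change was 0.48 (95% confidence interval 0.22 to 0.75, adjusted p = 0.0523). It passed with a filter at a mean of 5 FPKM (adjusted p = 0.0353), with rescaling (adjusted p = 0.0427) and with all 14 libraries in 1 fit (adjusted p = 0.00394). It also passed with quantile normalization, which gave 1.51 (adjusted p = 0.00144). Fits that keep HIDATA genes include Ckm and Pvalb, listed at 0 in all 4 follistatin libraries and averaging 9964 and 11660 FPKM in controls. Whether such 0 values had a part in the quantile result was not tested.

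The share of Casq2 in the FPKM of both calsequestrins does not depend on the scaling of a library. At day 3 it was 3.02, 3.35, 3.18 and 1.98% in follistatin libraries, against 1.25, 1.90 and 1.67% in controls. In the chronic set it was 1.67, 2.48, 1.68 and 1.45% in follistatin libraries, against 0.926, 1.10 and 0.950% in controls. Follistatin libraries lay above all controls in both sets. Means were 2.88 ± 0.619% in follistatin (SD, n = 4) and 1.61 ± 0.329% in control libraries (SD, n = 3) at day 3, and 1.82 ± 0.454% and 0.991 ± 0.0935% in the chronic set. The difference was 1.27 percentage points at day 3 and 0.83 in the chronic set, each with p = 0.0571 in a two-sided exact permutation test over 35 splits, whose smallest possible p is 0.0286. The share was chosen with earlier results of these data known, and it is made from the Casq2 and Casq1 values given above. The chronic shares rest on Casq1 values that the authors' table does not estimate.

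**Figure D2:**
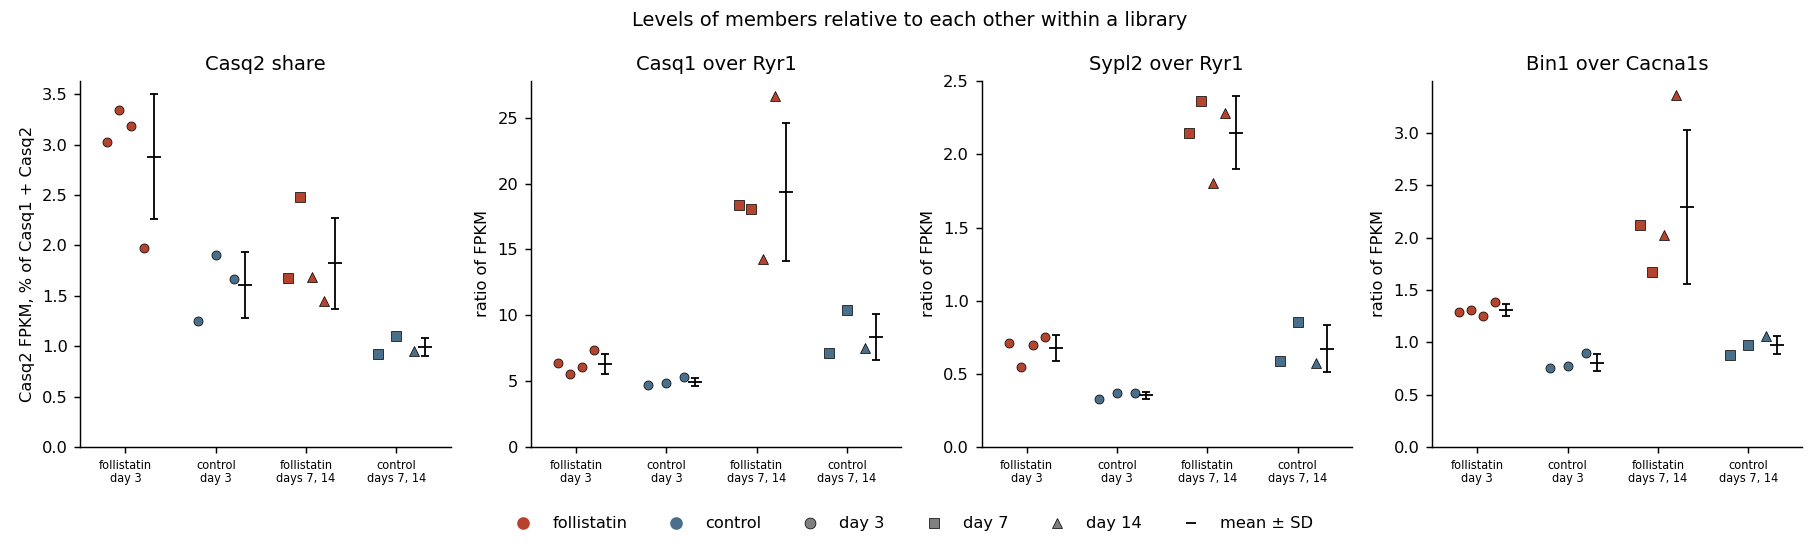
Casq2 as a percent of Casq1 plus Casq2 FPKM, and the ratios of Casq1 to Ryr1, Sypl2 to Ryr1 and Bin1 to Cacna1s FPKM, in each library (vertical axes, from 0), for follistatin and control libraries of each set (horizontal axis). Points are libraries and bars are mean ± SD. Follistatin libraries lie above all controls in each panel and set, for example 1.80 to 2.37 against 0.574 to 0.856 for Sypl2 over Ryr1 in the chronic set. Casq1 was marked HIDATA by the authors in the chronic set.

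Trdn, triadin, which anchors calsequestrin to the release channel, had overlapping ranges in both groups. Trdn (chromosome 10, 33080554 to 33476709, plus strand) lay at 366 to 470.5 FPKM in follistatin and 402 to 498 FPKM in control libraries of day 3, and at 360.2 to 509.5 against 409.97 to 451 FPKM in the chronic set. The log2 fold change was -0.07 (95% confidence interval -0.31 to 0.17) at day 3 and 0.00 (-0.31 to 0.32) in the chronic set. Its sign changed between settings.

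Sln, sarcolipin, a small membrane protein that inhibits the calcium pump, was the lowest of the members in all 14 libraries and 3.20-fold higher by the means with follistatin in the chronic set. Sln (chromosome 9, 53850164 to 53854560, plus strand) had 17.6, 32.4, 9.11 and 10.9 FPKM in follistatin libraries of day 3, against 1.87, 4.81 and 10.5 FPKM in controls. One control lay above the lowest follistatin library, and the log2 fold change of 1.52 (SE 0.52, adjusted p = 0.216) did not pass. For days 7 and 14 the values were 14.5 and 13.9 FPKM in follistatin libraries of day 7 and 11.3 and 11.5 FPKM in those of day 14, against 3.14 and 5.68 FPKM in controls of day 7 and 3.15 FPKM in the control of day 14. Every follistatin library lay above every control, with a log2 fold change of 1.50 (SE 0.19, adjusted p = 0.00987). The call was lost without control day 7 replicate 1 (adjusted p = 0.0691) or without the control of day 14 (adjusted p = 0.0531).

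Of the junction proteins, Sypl2 rose in both sets and the junctophilins were not called. Sypl2 (chromosome 3, 108211472 to 108226648, minus strand) codes for mitsugumin 29, a synaptophysin-like membrane protein of the triad. At day 3 it had 248, 211, 245 and 235 FPKM in follistatin libraries, against 152, 139 and 147 FPKM in controls. Chronic values were 421 and 448 FPKM in follistatin libraries of day 7 and 400.4 and 355 FPKM in those of day 14, against 197 and 228 FPKM in controls of day 7 and 192 FPKM in the control of day 14. The lowest follistatin library of each set lay above the highest control. Means were 234.8 ± 17.0 FPKM in follistatin (SD, n = 4) and 145.9 ± 6.80 FPKM in control libraries (SD, n = 3) at day 3, and 406 ± 38.95 FPKM and 205.3 ± 19.5 FPKM in the chronic set. The log2 fold change at day 3 was 0.68 (SE 0.07, adjusted p = 0.00619), and this call held when any 1 library was left out (adjusted p 0.00678 to 0.0367). For days 7 and 14 it was 0.98 (SE 0.12, adjusted p = 0.00876), a call lost without control day 7 replicate 1 (adjusted p = 0.0726) or without the control of day 14 (adjusted p = 0.0544). No other annotated exon overlaps those of Sypl2.

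Jph1 and Jph2 code for junctophilins, which span the gap between tubule and cisterna. Jph1 (chromosome 1, 16964560 to 17097889, minus strand) had 152, 129, 127 and 126 FPKM in follistatin libraries of day 3, against 99.8, 100.5 and 108 FPKM in controls. These groups did not overlap, but the log2 fold change of 0.37 (95% confidence interval 0.18 to 0.56, adjusted p = 0.0757) did not pass. It passed when small RNA genes were left out of the fit (adjusted p = 0.048). The chronic set gave 82.5 and 127 FPKM in follistatin libraries of day 7 and 131 and 141 FPKM in those of day 14, against 100.5 and 104 FPKM in controls of day 7 and 106 FPKM in the control of day 14. Here 1 follistatin library lay below all controls and the other 3 above them (log2 fold change 0.19, 95% confidence interval -0.24 to 0.62, adjusted p = 0.516). Jph2 (chromosome 2, 163336242 to 163397993, minus strand) lay at 189 to 223 FPKM in follistatin and 174 to 192 FPKM in control libraries of day 3, and at 194 to 243 against 189 to 213 FPKM in the chronic set. Its groups overlapped in both sets (log2 fold changes 0.17, adjusted p = 0.318, and 0.11, adjusted p = 0.549).

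Bin1, amphiphysin 2, which bends the membrane of the transverse tubule and is needed for its formation, rose in both sets. At day 3 the gene, on chromosome 18, had 335, 343, 325 and 326 FPKM in follistatin libraries, against 233, 224 and 249 FPKM in controls. For days 7 and 14 the values were 449.9 and 384 FPKM in follistatin libraries of day 7 and 459.8 and 547 FPKM in those of day 14, against 239 and 262 FPKM in controls of day 7 and 283 FPKM in the control of day 14. All follistatin libraries lay above all controls. At day 3 the change on the log2 scale was 0.50 (SE 0.06, adjusted p = 0.00896), and for days 7 and 14 it was 0.81 (SE 0.14, adjusted p = 0.0222). The day 3 call was lost without control replicate 1 (adjusted p = 0.0534). The chronic call was lost without any 1 of the 3 controls (adjusted p 0.0796 to 0.134) or without follistatin day 14 replicate 1 (adjusted p = 0.0521). Bin1 shares 256 exon bases with a gene on the other strand, A830052D11Rik, whose mean over all libraries was 2.98 FPKM.

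**Figure D3:**
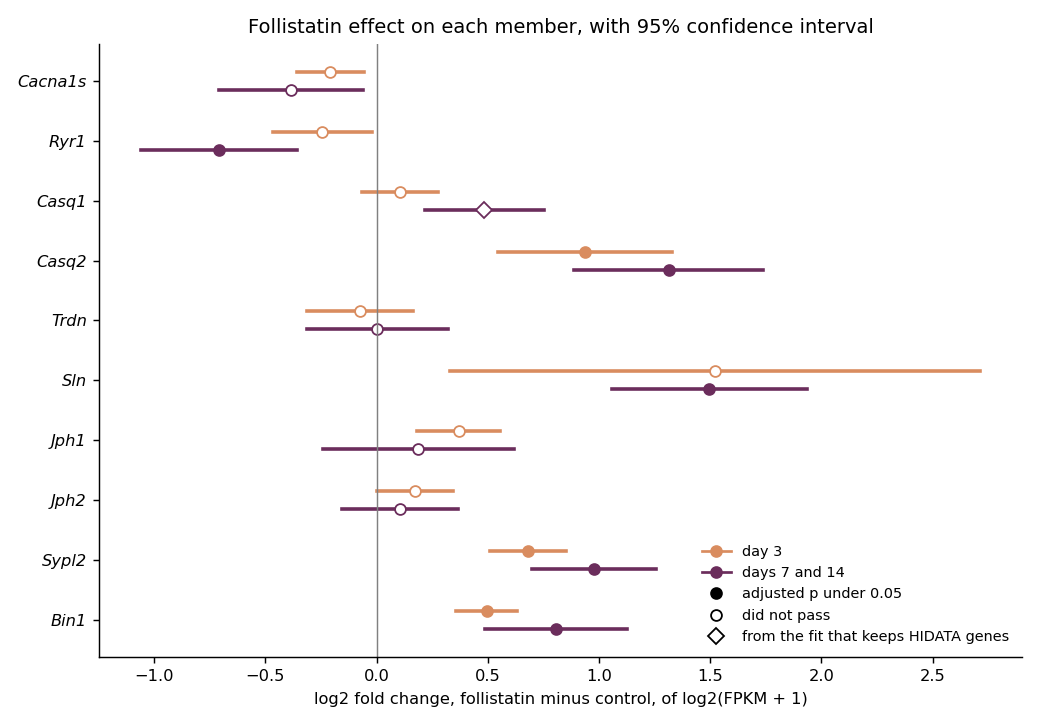
Log2 fold change of each of the 10 genes, follistatin minus control, of log2(FPKM + 1) (horizontal axis), at day 3 and at days 7 and 14. Bars are 95% confidence intervals, filled points have an adjusted p under 0.05, and the diamond is Casq1 from the fit that keeps genes marked HIDATA. Sypl2 (0.68 and 0.98), Bin1 (0.50 and 0.81) and Casq2 (0.94 and 1.31) are filled at both times, and Ryr1 (-0.71) is filled in the chronic set.

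Fold changes of Ryr1, Sypl2, Bin1 and Casq2 were further from 0 in the chronic set than at day 3, but no member's difference between the sets passed its test. In the interaction test over all 14 libraries, the chronic effect minus the day 3 effect was -0.46 for Ryr1 (95% confidence interval -0.86 to -0.07, unadjusted p = 0.0244, adjusted p = 0.274). It was 0.30 for Sypl2 (0.00 to 0.60, adjusted p = 0.328), 0.31 for Bin1 (-0.01 to 0.64, adjusted p = 0.342) and 0.38 for Casq2 (-0.19 to 0.94, adjusted p = 0.499). With genes marked HIDATA kept, it was 0.38 for Casq1 (0.07 to 0.69, unadjusted p = 0.0209, adjusted p = 0.261). This Casq1 difference ranged widely, from 0.33 to 1.73, over 8 alternative settings of the limma fit, and it passed in 1 of them (adjusted p = 0.000245). With a library left out it was 0.31 to 0.46 and passed in 0 of 14 fits. Among members not marked HIDATA, 0 were called by limma, beside 0.0752% of the 10643 genes tested. Of these members 1, Ryr1, had an unadjusted p under 0.05, beside 15.3% of the genes tested. The level of Fst also rose with the day, so time and amount of follistatin cannot be told apart. Ryr1 lay at 266 to 335 FPKM in controls of the chronic set and at 376 to 468 FPKM in controls of day 3, a difference that was not tested.

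The order of the members within a library changed at its middle. FPKM is per length, so levels can be ordered between genes. Casq1 was at the top in all 14 libraries, and Jph1, Casq2 and Sln were, in that order, the lowest 3. Ryr1 lay below Bin1, Sypl2, Trdn and Cacna1s in all 4 follistatin libraries of the chronic set, and above Bin1 and Sypl2 in all 3 controls of that set. The ratio of Casq1 to Ryr1 FPKM was 5.52 to 7.34 in follistatin and 4.67 to 5.31 in control libraries of day 3, and 14.3 to 26.7 against 7.16 to 10.4 in the chronic set. The ratio of Sypl2 to Ryr1 was 0.545 to 0.753 in follistatin and 0.325 to 0.369 in control libraries of day 3, and 1.80 to 2.37 against 0.574 to 0.856 in the chronic set. The ratio of Bin1 to Cacna1s was 1.26 to 1.39 in follistatin and 0.752 to 0.895 in control libraries of day 3, and 1.68 to 3.37 against 0.882 to 1.06 in the chronic set. The ratio of Cacna1s to Ryr1 was 0.678 to 0.753 in follistatin and 0.663 to 0.771 in control libraries of day 3. In the chronic set that ratio was 1.02 to 1.21 against 0.802 to 1.01. These ratios were chosen with the values known and have no test. The chronic ratios and the chronic rank of Casq1 rest on values that the authors' table marks HIDATA and does not estimate.

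A wider list of 36 calcium handling genes held 35 that were in the files. At day 3, 33 could be tested, of which 1 was called higher and 1 lower (6.06%, beside 1.49% of all genes). Of days 7 and 14, 31 could be tested, of which 2 were called higher and 1 lower (9.68%, beside 5.5% of all genes). The list's median log2 fold change was 0.08 at day 3 and 0.03 in the chronic set, beside 0.01 and -0.09 over all genes. By role, the called genes were all pump inhibitors or genes of the tubule and membrane, and 0 of 9 partners of the voltage sensor and release channel, 0 of 7 junction and lumen genes and 0 of 6 genes of store entry and surface transport were called by limma in either set. At an unadjusted p under 0.05 these 3 groups had 3, 5 and 1 genes at day 3 and 0, 3 and 2 in the chronic set, beside 15.2% and 28.3% of all genes.

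Mrln, myoregulin, an inhibitor of the calcium pump in skeletal muscle, was the one called lower, in both sets. Mrln (chromosome 10, 70204664 to 70219711, plus strand) averaged 50.1 ± 6.50 FPKM in follistatin and 95.2 ± 10.02 FPKM in control libraries of day 3 (SD, n = 4 and 3; log2 fold change -0.92, SE 0.11, adjusted p = 0.0101). The chronic averages were 61.5 ± 14.6 FPKM in follistatin and 111.7 ± 9.23 FPKM in control libraries (-0.88, SE 0.18, adjusted p = 0.0363). Its groups did not overlap in either set, so the pump inhibitors Mrln and Sln moved in opposite directions in the chronic set. The day 3 call was lost without control replicate 1 (adjusted p = 0.0534) or 2 (adjusted p = 0.0513), and the chronic call with rescaling (adjusted p = 0.0603) and without any control (adjusted p 0.0987 to 0.161), follistatin day 7 replicate 2 (adjusted p = 0.063) or follistatin day 14 replicate 1 (adjusted p = 0.0673). Pln, phospholamban, a pump inhibitor of heart and slow fibres, was at 1.39 FPKM in follistatin and 1.54 FPKM in control libraries of day 3 and under the filter in the chronic set. Atp2a1, the pump of fast fibres, was marked HIDATA at both times, averaged 9625 ± 706 FPKM in follistatin and 10780 ± 537 FPKM in control libraries of day 3, and was listed at 0 in all 7 chronic libraries. Atp2a2, the pump of heart and slow fibres, averaged 24.8 FPKM in follistatin and 19.5 FPKM in control libraries of day 3 (adjusted p = 0.583), and 13.3 and 13.0 FPKM in the chronic set (adjusted p = 0.976).

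Genes of the tubule and membrane gave the other calls. Cav3, muscle caveolin, which takes part in forming the transverse tubule, averaged 59.4 ± 5.89 FPKM in follistatin and 42.8 ± 1.44 FPKM in control libraries of day 3 (log2 fold change 0.46, adjusted p = 0.0464), and 74.5 ± 11.9 against 50.6 ± 2.00 FPKM in the chronic set (0.54, adjusted p = 0.0618). Dysf, dysferlin, a membrane repair protein, averaged 24.0 ± 1.99 FPKM in follistatin and 17.0 ± 0.99 FPKM in control libraries of the chronic set (0.47, adjusted p = 0.0427). Trim72, also a membrane repair protein, averaged 101.4 ± 12.6 FPKM in follistatin and 67.0 ± 5.16 FPKM in control libraries of the chronic set (0.58, adjusted p = 0.043). These 3 calls were near the threshold. Cav3 at day 3 was lost with rescaling (adjusted p = 0.053), quantile normalization (0.0576), all 14 libraries in 1 fit (0.0813), no filter (0.0701) and a replicate block (0.208), and without any library but follistatin replicate 1 (adjusted p 0.0873 to 0.169). Dysf, in the chronic set, was lost with day as a covariate (adjusted p = 0.0559) and without any control, follistatin day 7 replicate 2 or follistatin day 14 replicate 1 (adjusted p 0.0709 to 0.197), and Trim72 without any control or either follistatin library of day 14 (adjusted p 0.0624 to 0.202). Trim72 shares 617 exon bases with the antisense gene Gm15533, and Dysf shares 352 with Gm15475 and 105 with Gm33024, both antisense.

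Among the partners of the voltage sensor, Cacnb1, its beta subunit, averaged 132.2 FPKM in follistatin and 108.2 FPKM in control libraries of day 3 (log2 fold change 0.29, adjusted p = 0.0862) and 112.9 and 93.8 FPKM in the chronic set (0.25, adjusted p = 0.328). Stac3, which brings the sensor to the triad, averaged 119.5 and 112.2 FPKM at day 3 (0.09, adjusted p = 0.585) and 127.1 and 127.8 FPKM in the chronic set (-0.01, adjusted p = 0.955).

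**Figure D4:**
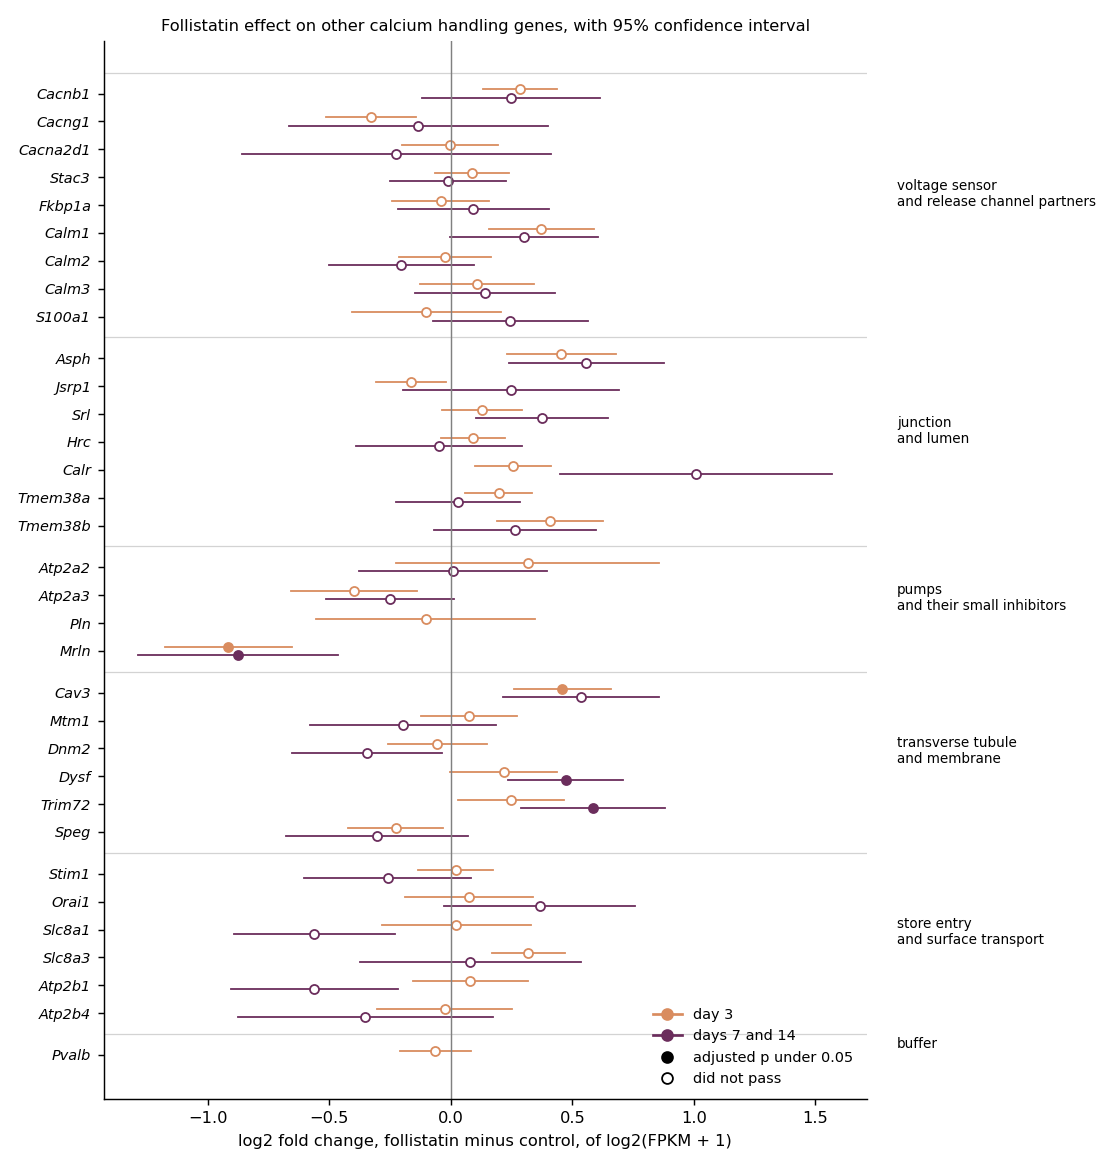
Log2 fold change, follistatin minus control, of log2(FPKM + 1) (horizontal axis), for the tested genes of the wider calcium handling list, grouped by role, at day 3 and at days 7 and 14. Bars are 95% confidence intervals and filled points have an adjusted p under 0.05. Mrln is filled on the lower side at both times (-0.92 and -0.88), and Cav3 at day 3 and Dysf and Trim72 in the chronic set are filled on the higher side.

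The genes whose levels ran most alike those of Sypl2, Casq2 and Sln were found among 10663 genes by Pearson's r of log2(FPKM + 1) over the 14 libraries, each centred on the mean of the controls of its set. These libraries fall into 4 groups and share their scaling, so r describes them without a test. Nearest to Sypl2 were Aimp2 (r = 0.978), Tspan9 (0.976) and Pla2g4e (0.959). Nearest to Casq2 were Cidea (0.979), Pabpc1 (0.965) and Bag2 (0.96), and nearest to Sln were Arpp21 (0.913), Reps1 (0.908) and Ncs1 (0.901).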

How the data were processed

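FPKM (fragments per kilobase, scaled to library size) of each library were deposited by the authors, who used TopHat, Cuffdiff and the build mm10, per the submitters' processing notes. Versions, annotation and strand setting are not given in the sources used here. Per the file headers, 2 tables of the authors give Cuffdiff's log2 fold changes, test statistic (a score), p-values and q-values.

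From the FPKM, limma 3.58.1 (R 4.3.3, lmFit and eBayes with trend) was fitted to log2(FPKM + 1) for each set, for genes whose mean reached 1 FPKM, two-sided, with Benjamini-Hochberg adjustment over all genes and a threshold of 0.05. The added 1 understates changes of low genes. The difference of effects was an interaction over 14 libraries. Of 24386 genes, 27 with symbols turned into dates were left out. Tests did not include genes marked HIDATA (4 at day 3, 31 in the chronic set). Absolute depth is unknown. Relative depth, from steps between values under 0.5 FPKM (log2 tolerance 0.02), was 0.688 to 1.283 of that of control replicate 1 at day 3, where 79.3% to 83.5% of low values met a ratio of whole reads. In the chronic set only 52.9% to 62.9% did, so no relative depth is given. Positions are from GENCODE M21 on mm10, and promoters from RefSeq.

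The members, the wider list, the marker lists and the Casq2 share were chosen with earlier results of these data known. All members are described. Of the wider list, every called gene and Atp2a1, Atp2a2, Pln, Mrln, Stac3 and Cacnb1 are described. Alternatives were another pseudocount (0.1), no filter or a mean of at least 5 FPKM, median ratio rescaling, quantile normalization, robust eBayes, HIDATA genes kept, 1277 small RNA genes left out, all libraries in 1 fit, a replicate block, day as a covariate, day 7 alone and each library left out. The ratios between members, and the alternatives for Casq1 with HIDATA genes kept and for genes of the wider list, were added after seeing the data. The fits were also run on simulated data with independent errors and planted changes, which does not show how they behave on these libraries.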

Additional observations from a re-analysis of the deposited data

Results flagged for a closer look

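In 3 of 30 sets of 4 follistatin libraries examined, 1 library stood apart from the other 3 by Dixon's test for 4 values. Chance flags about 1 in 20 such groups. Casq2 at day 3 had its lowest follistatin library at 46.2 FPKM (46.1689), with the other 3 at 69.3 to 73.9 FPKM. Cacna1s at day 3 had its lowest follistatin library at 235 FPKM (234.838), with the other 3 at 258 to 262 FPKM. Both were replicate 4, the library of lowest relative depth at day 3 (0.688). Jph1 at day 3 had its highest follistatin library, replicate 1, at 152 FPKM (152.093), with the other 3 at 126 to 129 FPKM. Without replicate 4, the Casq2 log2 fold change at day 3 was 1.09 (adjusted p = 0.00944 by limma), against 0.938 with it. The other flagged genes came closer to 0 without their flagged library. Cacna1s went from -0.207 to -0.171 (adjusted p = 0.323), and Jph1 from 0.369 to 0.305 (adjusted p = 0.0982). Leaving out a library for its value moves the mean away from that value by construction. Whether depth had a part in these values was not tested.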

How the results depend on the processing

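Of the called members, Sypl2, Bin1 and Casq2 were higher and Ryr1 lower under every alternative run, with log2 fold changes of 0.64 to 0.73 (Sypl2), 0.46 to 0.54 (Bin1) and 0.82 to 1.09 (Casq2) at day 3. The day 3 count of 3 members called was 1 with a replicate block and 1 to 3 with a library left out. The chronic count of 5 was 3 with no filter, 3 with a replicate block, 0 with day 7 libraries alone and 0 to 5 with a library left out (0 without control day 7 replicate 1 or the control of day 14, 3 without control day 7 replicate 2 or follistatin day 14 replicate 1). All genes called at day 3 numbered 168, and 266 without small RNA genes, 19 with a replicate block and 39 to 165 with a library left out. All genes called in the chronic set numbered 608, and 284 with no filter, 962 without small RNA genes, 2098 with all libraries in 1 fit, 164 with a replicate block, 30 at day 7 alone and 43 to 907 with a library left out. They split into 247 higher and 361 lower, against 389 and 239 with rescaling and 414 and 326 with quantile normalization. The median of all genes was 0.00 with rescaling, against -0.09 without it (log2). Calls for the difference of effects numbered 8, and 1 with no filter, 5 with rescaling, 23 with HIDATA genes kept, 0 with a replicate block and 1 to 33 with a library left out. The Casq2 share differed by 1.10 to 1.58 percentage points at day 3 and 0.609 to 0.954 in the chronic set with a library left out.

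The replicate block used only libraries with a same-numbered partner, which left out follistatin day 3 replicate 4 and follistatin day 14 replicate 2. The effects of the block and of the missing libraries cannot be told apart. The replicate block also ended the calls of Sypl2 (adjusted p = 0.0863), Bin1 (0.131), Mrln (0.117) and Cav3 (0.208) at day 3. In the chronic set it ended those of Bin1 (0.063), Ryr1 (0.078), Dysf (0.0999) and Trim72 (0.098). Same-numbered libraries of day 3 deviated with correlations of -0.056 to -0.033, and pairs of unlike number with -0.067 to 0.089. So few pairs cannot show whether libraries were paired, and the chronic set was not checked. No filter ended the calls of Casq2 (0.0741) and Cav3 (0.0701) at day 3 and of Bin1 (0.0517), Ryr1 (0.0763), Mrln (0.0606), Dysf (0.0644) and Trim72 (0.0705) in the chronic set. At day 7 alone none of the named genes passed. Signs changed for uncalled genes alone. Trdn was 0.012 at day 3 without control replicate 3 (-0.143 to 0.012 over libraries left out). In the chronic set Trdn was -0.13 with quantile normalization, -0.075 with the replicate block, -0.023 with day as a covariate, -0.203 at day 7 alone and -0.075 to 0.091 with a library left out. Stac3 was 0.10 with rescaling, 0.048 at day 7 alone and -0.064 to 0.023 with a library left out, and Atp2a2 -0.15 at day 7 alone and -0.068 to 0.146 with a library left out. The cause of these changes was not tested. Read counts are unknown, so no counting error can be given for low genes such as Sln.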
